A study of Mus musculus with 4 samples.

Results

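The growth hormone (GH) and insulin-like growth factor (IGF) axis was followed in mouse liver through 10 genes: the receptor Ghr, the transducer Stat5b, the GH-regulated genes Socs2, Cish and Bcl6, the ligand Igf1, its carrier subunit Igfals, and the binding proteins Igfbp1, Igfbp2 and Igfbp4. They were picked by symbol as the GH receptor, targets of STAT5 and IGF-binding proteins. All 10 were present among the 48709 gene identifiers counted, and all 10 were among the 13699 genes with enough reads to test. The mRNA came from livers of untreated C57BL/6 mice and was sequenced as 4 libraries, 2 WT and 2 DDI2-KO. WT mice were littermates with the floxed Ddi2 allele and no Cre. DDI2-KO mice were Ddi2 flox/flox Alb-Cre+, so that the protease DDI2 is deleted where the albumin promoter is active, as in hepatocytes. Both sexes were used in the study, which gives age only as a range of weeks for all its mice. The sex, age, feeding and hour of collection of each mouse were not given in the sources used here.

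Reads on genes numbered 34109018 in WT 1, 31532247 in WT 2, 25582344 in DDI2-KO 1 and 22501208 in DDI2-KO 2. Levels are given as CPM, counts per unit of library size after TMM scaling, and a level of 3 reads is 0.0892 to 0.131 CPM in these libraries. Ddi2 itself was at 141 and 123 CPM in the WT libraries and at 157 and 164 CPM in the DDI2-KO libraries. The targeted gene was thus at no lower level in DDI2-KO, a name used here for the label, although a count over the whole gene does not show which of its exons the reads came from, and exons were not counted apart. The metallothionein gene Mt1 did follow the label, at 97.3 and 47.0 CPM in WT and 5.41 and 4.66 CPM in DDI2-KO, and so did Mt2, at 51.8 and 13.7 CPM in WT and 0.927 and 1.00 CPM in DDI2-KO. Both genes are hits of the study itself, so these levels carry no test. Of the 50-base stretches of the longest Ddi2 transcript, 17.9% are also found in Rsc1a1, which lies within its exons.

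GH released by the pituitary binds its receptor on hepatocytes and activates JAK2 and the transcription factors STAT5A and STAT5B. STAT5 induces Igf1 and Igfals, whose products form the long-lived IGF complex in plasma, and induces Cish and Socs2, which damp the receptor's signal. The repressor BCL6 is shut off by the same signal, and the rhythm of GH release sets the male and female patterns of liver gene expression. IGF-binding proteins hold IGF in the circulation and in tissue, and several of them follow nutrition more than GH.

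In the main edgeR fit a single member was called between the genotypes. Igfbp2 was 3.58-fold lower in the DDI2-KO libraries, while the receptor, the transducer, the feedback inhibitors, the ligand and its carrier did not pass the test. Socs2 was called too with no filter on low counts, and Socs2 and Igfbp1 with a replicate block. The count of 1 member called, at an adjusted p under 0.05, stands beside 346 of 13699 genes in all, or 2.53%. Genes called higher were 182, or 1.33%, and genes called lower were 164, or 1.20%. Without WT 1 the genes called were 153, without WT 2 they were 203 and without DDI2-KO 2 they were 631, and Igfbp2 was called each time. The groups did not overlap for Igfbp2, Igf1 and Socs2, 3 of the 10 members, where 55.7% of all tested genes had groups that did not overlap. The median log2 fold change of the members was -0.04, against -0.01 for all genes tested.

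**Figure D1:**
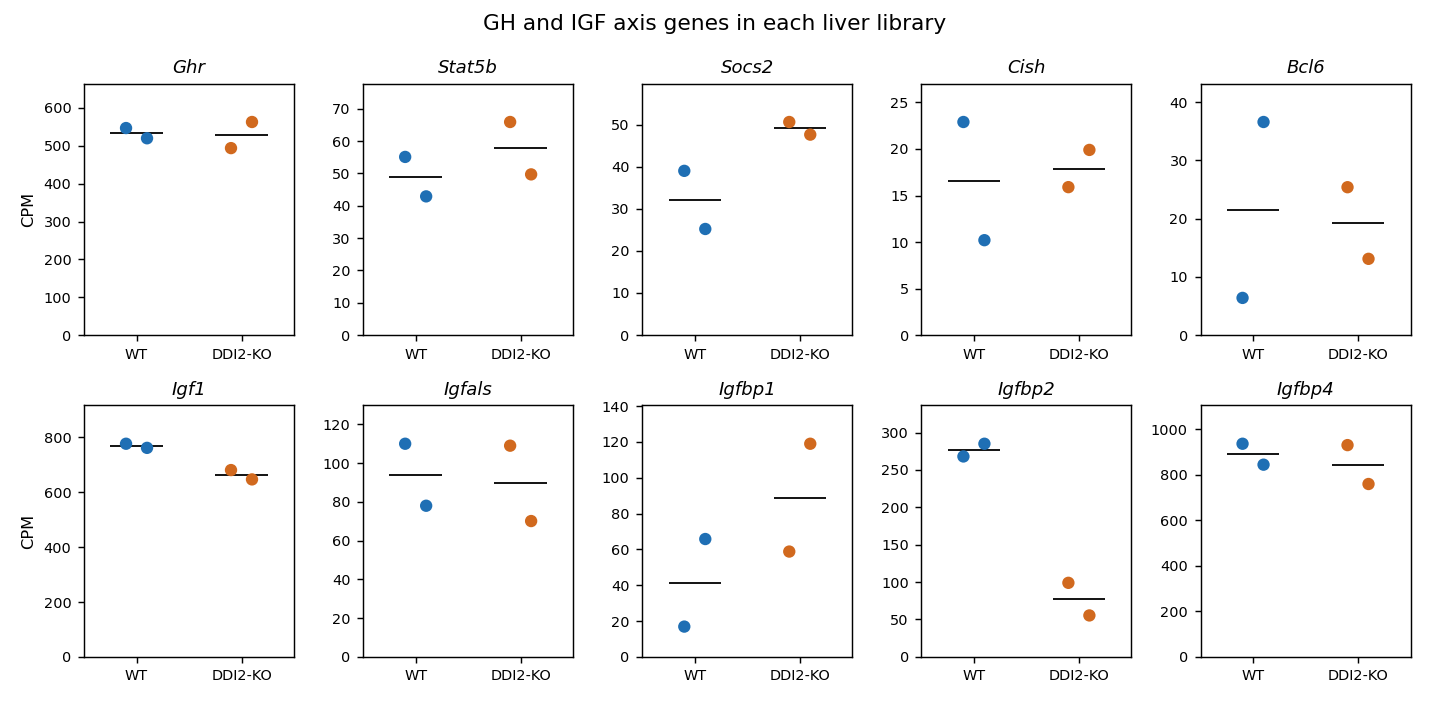
Level of each of the 10 genes in CPM in the 4 liver libraries, with WT in blue and DDI2-KO in orange; each point is a library and each line the mean of 2. Igfbp2 is at 268 and 285 CPM in WT and at 99.0 and 55.4 CPM in DDI2-KO, while the WT points of Bcl6 and Igfbp1 lie far apart.

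The WT libraries differed from each other in genes of the female liver pattern, which follows GH. Of the 13 tested, 10 were lowest in WT 2 (76.9%, against 21.9% of all genes tested) and 2 in WT 1. WT 2 had 1.00 CPM of Cyp3a16, a cytochrome P450, against 198 CPM in WT 1, 144 in DDI2-KO 1 and 200 in DDI2-KO 2. The sulfotransferase gene Sult3a1 was at 17.5 CPM in WT 2 and at 294, 79.4 and 64.9 CPM in WT 1, DDI2-KO 1 and DDI2-KO 2. Cyp3a44 was at 9.16 CPM in WT 2, with 238 CPM in WT 1 and 21.2 and 30.6 CPM in the DDI2-KO libraries, so for these 2 genes WT 1 lay above the DDI2-KO libraries and WT 2 below them. Cyp2a4 went the other way, with 710 CPM in WT 1 and 1410 in WT 2. Genes of other lists also differed within WT. Male-pattern Cyp2d9 was at 57.6 CPM in WT 1 and 32.0 in WT 2 and Slco1a1 at 270 and 196 CPM. Gstp1, also male-pattern, went the other way, with 27.2 and 30.9 CPM, and insulin-induced Scd1 was at 4130 and 13700 CPM. Which library was lowest was counted for the female-pattern list and for all genes, not for the male-pattern list. Reads on the Y-linked Ddx3y, Uty, Kdm5d and Eif2s3y were 0 in all 4 libraries. Xist, expressed from the inactive X chromosome, was at 520 and 373 CPM in WT and at 47.5 and 143 CPM in DDI2-KO. By these genes all 4 libraries read as female. Xist was lower in DDI2-KO, with groups that did not overlap (log2 fold change -2.23; edgeR, adjusted p = 0.120), and was called by DESeq2. Cyp3a16, Sult3a1, Cyp3a44 and Cyp3a41a, the last with 271, 9.22, 181 and 116 CPM, were singled out after their values were seen, and the count of lowest genes was made after that. Cyp3a41a shares 98.6% of its 50-base stretches with other genes, Cyp3a44 26.5%, Cyp3a16 10.7% and Sult3a1 6.15%, so part of their reads could belong to relatives. At least 4-fold apart between the WT libraries were 33 of 13699 tested genes, 0.241%, and 23 between the DDI2-KO libraries, 0.168%. Without WT 2 the log2 fold change was -0.05 for Ghr, 0.07 for Stat5b, -0.23 for Igf1, -0.29 for Igfals, -1.79 for Igfbp2 and -0.15 for Igfbp4, and it is given below for the other members.

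**Figure D2:**
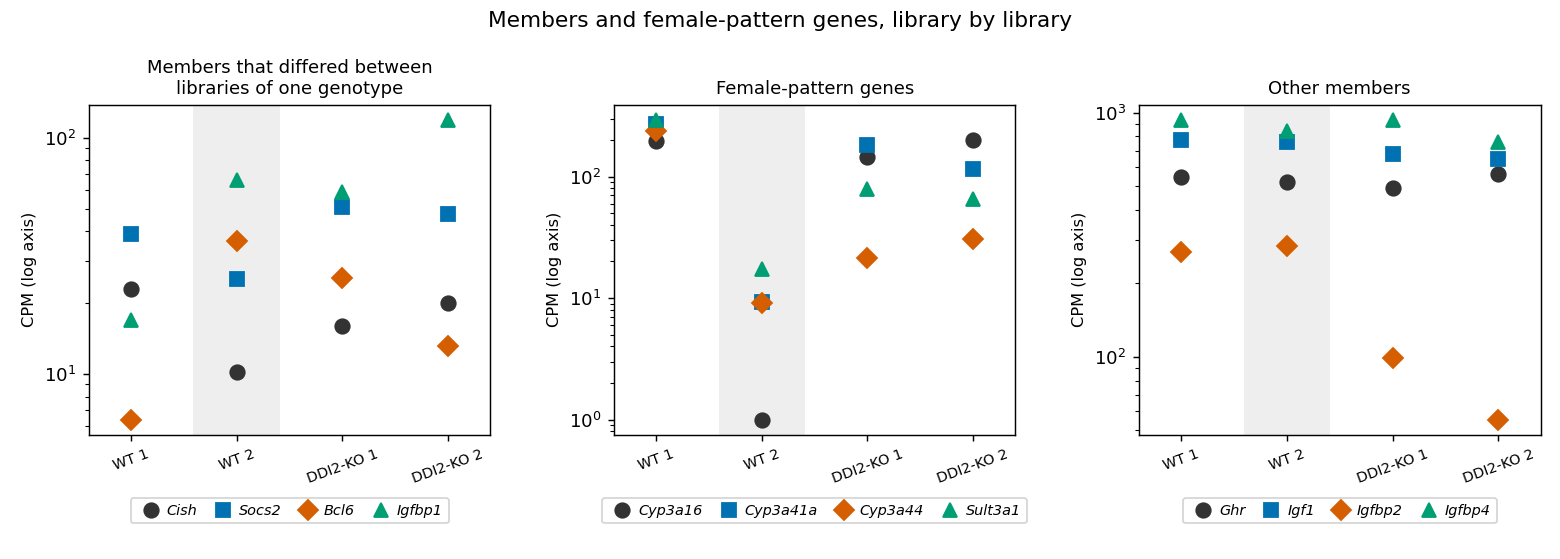
CPM on a log axis in each of the 4 libraries for 4 members that differed between libraries of a genotype (left), 4 female-pattern genes (middle) and 4 other members (right), with WT 2 shaded. WT 2 has the lowest Cish, 10.2 CPM, and Cyp3a16, 1.00 CPM, and the highest Bcl6, 36.6 CPM, whereas Igfbp2 separates the genotypes. Igfbp2, on the right, also differs 1.79-fold between the DDI2-KO libraries, more than Socs2, on the left, between the WT libraries, 1.54-fold.

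Ghr (chr15:3317760-3583492; positions are of GRCm38), the receptor through which hepatocytes sense GH, was at 547 and 520 CPM in WT and at 494 and 563 CPM in the DDI2-KO libraries. The groups overlapped, and the 4 libraries lay within 1.14-fold of each other, the narrowest range of the 10 members. The log2 fold change was -0.01 (95% interval -0.41 to 0.39; edgeR quasi-likelihood test, Benjamini-Hochberg adjusted p = 0.970), with a sign that depended on the scaling.

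Stat5b (chr11:100780731-100850724), the main STAT5 of liver, was at 55.1 and 42.9 CPM in WT and at 65.9 and 49.7 CPM in the DDI2-KO libraries. Here too the groups overlapped. Its log2 fold change was 0.24 (95% interval -0.22 to 0.70; edgeR, adjusted p = 0.513). Of its 50-base stretches 11.8% also occur in Stat5a, so a small share of reads cannot be assigned between the paralogs.

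Socs2 (chr10:95385362-95417180), a STAT5-induced inhibitor of the receptor, was at 39.0 and 25.2 CPM in WT and at 50.6 and 47.6 CPM in the DDI2-KO libraries. Both of the latter were above both WT libraries. The log2 fold change was 0.61 (standard error 0.22, 95% interval 0.11 to 1.11; edgeR, adjusted p = 0.146). Without WT 2 it was 0.33 and without WT 1 it was 0.96. Socs2 passed the test with no filter on low counts (edgeR, adjusted p = 0.0317) and with a replicate block (edgeR, adjusted p = 0.0470). Of its stretches 7.23% are shared with the predicted genes Gm8000 and Gm9847.

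Cish (chr9:107296026-107302784), the other STAT5-induced inhibitor, had 22.9 CPM in WT 1 and 10.2 in WT 2, and 15.9 and 19.9 CPM in the DDI2-KO libraries. The WT libraries enclosed the others. Its log2 fold change was 0.11 (95% interval -0.82 to 1.05; edgeR, adjusted p = 0.890) and was -0.35 without WT 2. The predicted genes Gm17040 and Gm17041 lie on the other strand over 11.5% of its exon bases, where Gm17040 held 7 to 21 reads a library and Gm17041 held 0.

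Bcl6 (chr16:23965052-23988852), the repressor that GH signalling turns down, had 6.39 CPM in WT 1 and 36.6 in WT 2, the widest WT gap of the members at 5.72-fold. DDI2-KO 1 had 25.4 CPM and DDI2-KO 2 had 13.1, both between the WT values. The log2 fold change was -0.15 (standard error 1.03, 95% interval -3.40 to 3.09; edgeR, adjusted p = 0.949). Without WT 2 it was 1.59 (edgeR, adjusted p = 0.0887, where the alternatives gave 0.0887 to 0.975), and it was 0.25 without DDI2-KO 2. With all libraries limma-voom gave 0.28 and a replicate block 0.23, so the direction depended on the method and on the libraries used. The order of the libraries from high to low was WT 2, DDI2-KO 1, DDI2-KO 2, WT 1 for Bcl6 and the reverse, WT 1, DDI2-KO 2, DDI2-KO 1, WT 2, for Cish.

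The letters TTCNNNGAA, which STAT5 binds as a dimer, were looked for in windows of 300 bases at RefSeq start sites (GRCm38.p6), 250 before and 50 from the start. They read the same on both strands. Of 32851 windows of all genes 8.30% held them and 0.457% held 2 or more copies. Windows were found for 9 members, 15 windows in all, and 5 of these held the letters: 2 of Bcl6, 2 of Igfals and 1 of Cish. A Bcl6 window had 3 copies and the Cish window had 2, so the stretches of these 3 genes are shown, with the letters in capitals. The Bcl6 stretch is chr16:23981284-23981533 on the minus strand, upstream of the inner of its start sites and in no annotated exon. The Igfals stretch is chr17:24877981-24878214 on the plus strand, also outside annotated exons. The Cish stretch is chr9:107296655-107296682 on the plus strand, at a RefSeq start that lies in the first exon of a longer GENCODE transcript.
Bcl6: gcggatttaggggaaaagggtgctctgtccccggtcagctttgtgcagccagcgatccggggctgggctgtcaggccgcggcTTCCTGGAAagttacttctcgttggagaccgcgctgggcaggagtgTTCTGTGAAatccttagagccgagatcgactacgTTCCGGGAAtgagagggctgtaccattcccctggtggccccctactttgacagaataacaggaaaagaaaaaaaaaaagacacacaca
Igfals: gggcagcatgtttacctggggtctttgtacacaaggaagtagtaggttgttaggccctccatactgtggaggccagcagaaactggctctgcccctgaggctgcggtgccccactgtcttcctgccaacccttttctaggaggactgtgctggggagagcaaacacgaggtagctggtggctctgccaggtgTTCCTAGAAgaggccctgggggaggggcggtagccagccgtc
Cish: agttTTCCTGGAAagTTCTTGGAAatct
The copies in Bcl6 begin 168, 122 and 88 bases before the start, and that in Igfals 58 bases before it. The 2 copies in Cish begin at bases 1 and 12 of the transcript. Socs2 had no window in the table.

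Igf1 (chr10:87858265-87937042), the hormone that liver secretes under GH, was at 777 and 762 CPM in WT and at 681 and 647 CPM in the DDI2-KO libraries. Both of the latter were below both WT libraries, and libraries of a genotype were within 1.05-fold of each other. The log2 fold change of -0.21 did not pass the test (standard error 0.17, 95% interval -0.60 to 0.17; edgeR, adjusted p = 0.487). With offsets for GC content and transcript length it was 0.19, so the direction depended on the processing.

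Igfals (chr17:24865997-24882010), the acid-labile subunit that stabilises IGF in plasma, was at 110 and 78.0 CPM in WT and at 109 and 70.1 CPM in the DDI2-KO libraries. The spread was within the genotypes, 1.41-fold in WT and 1.56-fold in DDI2-KO, and the means were close, 93.9 ± 22.4 and 89.7 ± 27.6 CPM (SD, n = 2 each). Its log2 fold change was -0.07 (95% interval -0.66 to 0.53; edgeR, adjusted p = 0.905), and 0.23 without DDI2-KO 2.

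**Figure D3:**
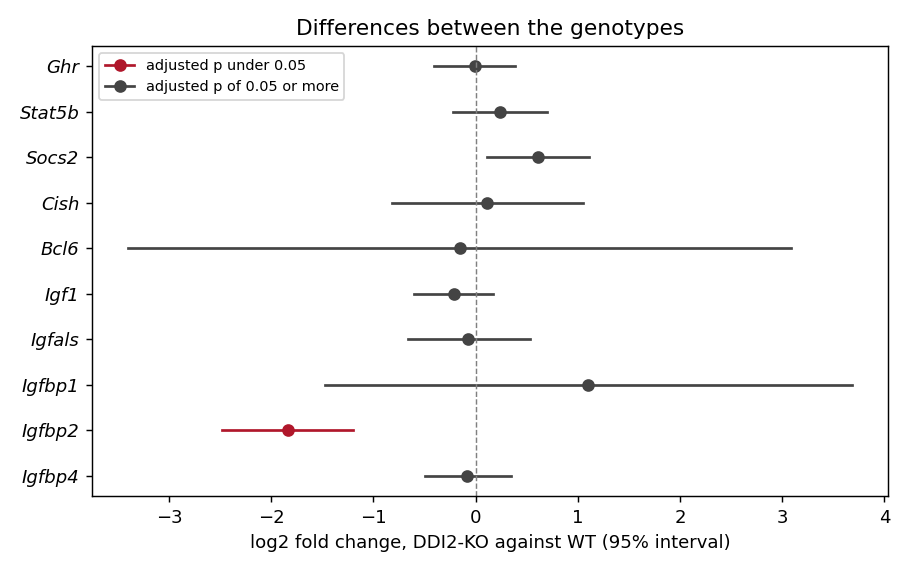
Log2 fold change of each of the 10 genes, DDI2-KO against WT, with its 95% interval from edgeR; red marks an adjusted p under 0.05. The interval of Igfbp2, -2.48 to -1.20, and that of Socs2, 0.11 to 1.11, lie clear of 0, and those of Bcl6 and Igfbp1 are the widest.

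Igfbp2 was the only member called in the main edgeR fit. It encodes a binding protein made by hepatocytes that is raised in fasting and low insulin and lowered by GH. WT 1 and WT 2 had 9010 and 8813 reads on it, and DDI2-KO 1 and DDI2-KO 2 had 2563 and 1274, or 268 and 285 CPM against 99.0 and 55.4 CPM. The WT libraries agreed within 1.06-fold, and the DDI2-KO libraries, 1.79-fold apart, were both far below them. The means were 277 ± 12.2 CPM in WT and 77.2 ± 30.8 CPM in DDI2-KO (SD, n = 2 each). The log2 fold change was -1.84 (standard error 0.27, 95% interval -2.48 to -1.20; edgeR, adjusted p = 0.0295). Its p was number 83 from the smallest among the 13699 genes, and of the 15 genes called lower that averaged 100 CPM or more it had the 3rd lowest log2 fold change, and of the 92 that averaged 10 CPM or more the 11th lowest. It was called in each of the 16 alternative fits, with values from -2.32 to -1.47. None of its 50-base stretches occurs in another gene.

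The Igfbp2 gene, ENSMUSG00000039323, lies at chr1:72824503-72852474 on the plus strand. The 250 bases before its outer RefSeq start, chr1:72824230-72824479 on the plus strand, are shown because this gene was the member called in the main fit. Neither the STAT5 letters nor the forkhead letters GTAAACA and AAACAA, searched on both strands, are in this window, so it has no capitals. In all windows the forkhead letters were found in 3.65% and 20.7%. The window at the inner Igfbp2 start held AAACAA 49 bases before the start.
Igfbp2: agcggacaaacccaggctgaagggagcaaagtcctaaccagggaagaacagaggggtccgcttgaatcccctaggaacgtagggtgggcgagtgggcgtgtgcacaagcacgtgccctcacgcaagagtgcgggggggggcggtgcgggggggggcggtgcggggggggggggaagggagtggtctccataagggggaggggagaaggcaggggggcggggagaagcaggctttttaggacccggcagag
The stretch is rich in G and C, 67.2% of its bases.

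Igfbp1 (chr11:7197782-7202546), the binding protein that insulin represses within hours through the forkhead factor FOXO1, varied most among the members. It was at 16.9 CPM in WT 1, 65.8 in WT 2, 58.8 in DDI2-KO 1 and 119 in DDI2-KO 2, a 7.03-fold range. WT 2 lay between the DDI2-KO libraries, so the groups overlapped. The log2 fold change was 1.10 (standard error 0.85, 95% interval -1.47 to 3.68; edgeR, adjusted p = 0.528). Without WT 2 it was 2.39 and passed the test (edgeR, adjusted p = 0.0415; the alternatives ranged from 0.00639 to 0.882), and without WT 1 it was 0.43. Its window held AAACAA once, in capitals here, 106 bases before the start, in the stretch chr11:7197537-7197781 on the plus strand, shown as the insulin-responsive counterpart to Igfbp2.
Igfbp1: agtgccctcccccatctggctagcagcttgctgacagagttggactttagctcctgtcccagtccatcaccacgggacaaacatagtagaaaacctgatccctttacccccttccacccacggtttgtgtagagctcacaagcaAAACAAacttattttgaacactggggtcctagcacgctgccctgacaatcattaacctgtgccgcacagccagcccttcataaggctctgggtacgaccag

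Igfbp4 (chr11:99041244-99054392), the most abundant IGF-binding protein transcript in these livers, was at 937 and 845 CPM in WT and at 931 and 760 CPM in the DDI2-KO libraries. The groups overlapped. Its log2 fold change was -0.08 (95% interval -0.50 to 0.35; edgeR, adjusted p = 0.841), and 0.07 without DDI2-KO 2.

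To compare genes with each other, CPM was divided by the length of the merged exons. The means over the 4 libraries were then, in CPM per kb, 197 for Igfbp4, 95.8 for Igfbp2, 72.4 for Igf1, 58.7 for Ghr, 42.7 for Igfbp1 and 29.0 for Igfals. Stat5b had 9.64, Socs2 4.26, Bcl6 3.04 and Cish 2.68 CPM per kb. Igfbp4 was above all other members in every library. The ranges of Socs2, 2.65 to 5.31, Bcl6, 0.954 to 5.46, and Cish, 1.58 to 3.56 CPM per kb, overlapped, so their order was not settled. Nor was that of Igfbp2, 30.0 to 154, and Igfbp1, 11.1 to 78.0, whose ranges overlapped each other and those of Igf1, 65.3 to 78.4, Ghr, 54.6 to 62.2, and Igfals, 22.1 to 34.7 CPM per kb.

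Igfbp1 to Igfbp7 together gave 479 and 511 CPM per kb in WT and 401 and 383 in the DDI2-KO libraries. Igfbp2 made up 30.3% of that sum in each WT library, 13.4% in DDI2-KO 1 and 7.84% in DDI2-KO 2. The share of Igfbp1 was 2.32% in WT 1, 8.45% in WT 2, 9.60% in DDI2-KO 1 and 20.4% in DDI2-KO 2. In DDI2-KO 2 the level per length of Igfbp1, 78.0, exceeded that of Igfbp2, 30.0, while in the other libraries Igfbp2 was the higher.

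**Figure D4:**
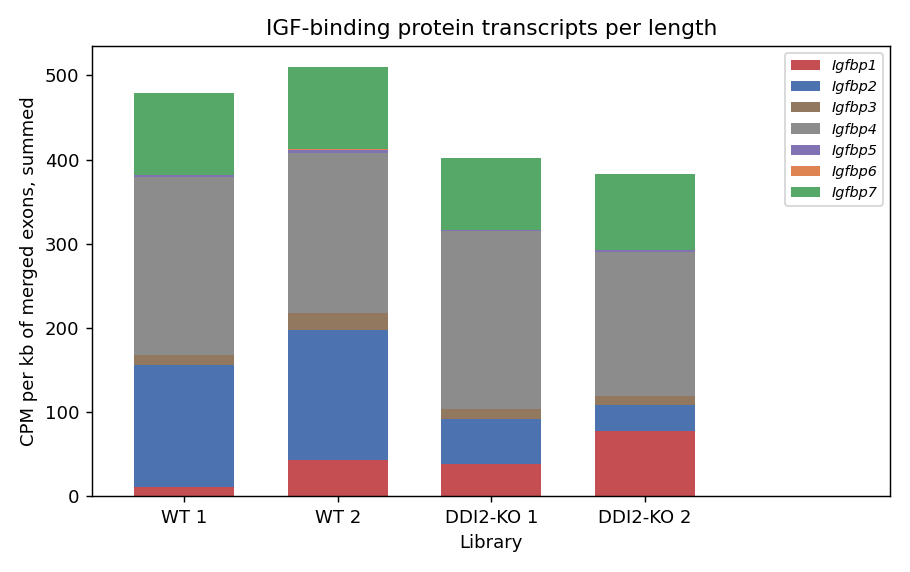
Stacked levels of Igfbp1 to Igfbp7 in CPM per kb of merged exons in each library. The Igfbp2 segment shrinks from 145 and 154 in WT to 53.6 and 30.0 in DDI2-KO, while Igfbp4 and Igfbp7 keep similar heights.

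Of the binding protein genes, 4 lie in facing pairs, which the choice of members did not use. Igfbp2 and Igfbp5 are separated by 5.46 kb on chromosome 1 and Igfbp1 and Igfbp3 by 3.54 kb on chromosome 11, with 0 protein-coding genes between the genes of either pair. Igfbp5, named after its values were seen, was at 11.7 and 17.7 CPM in WT and at 8.34 and 8.01 CPM in the DDI2-KO libraries. It was below WT in both but did not pass the test (log2 fold change -0.85; edgeR, adjusted p = 0.0873). Igfbp3 was at 36.9 and 63.4 CPM in WT and at 35.9 and 33.6 CPM in the DDI2-KO libraries (log2 fold change -0.53; edgeR, adjusted p = 0.248).

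Among 7378 other genes that reached 10 CPM on average, profiles close to Igfbp2 over the 4 libraries included those of Nnmt, the closest, and Enho. Closeness was the Euclidean distance between log2 CPM values centred per gene, 0.0860 for Nnmt and 0.322 for Enho. Nnmt, which encodes nicotinamide N-methyltransferase, was at 61.4 and 65.4 CPM in WT and at 21.5 and 11.9 CPM in the DDI2-KO libraries. Enho, which encodes the peptide adropin, had 23.0, 22.3, 8.46 and 3.61 CPM. Both were chosen by their likeness to Igfbp2, so their differences are given only as a description.

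The rest of the GH pathway showed no gene past edgeR's test unless settings were changed or a library was left out. Of 18 genes for GH receptor signalling, 17 were tested and 0 were called by edgeR, DESeq2, limma-voom or limma-trend, but 1 by edgeR without DDI2-KO 1 and 2 with no filter on low counts, with 5 at an unadjusted p under 0.05 by edgeR, which 3216 of all 13699 genes had, or 23.5%. The most abundant per length were Prlr, the prolactin receptor (log2 fold change -0.29), the phosphatase gene Ptpn6 (-0.16) and Stat3 (-0.10). Of 17 genes for IGF ligands, receptors and other binding proteins, 11 were tested and 0 were called by edgeR or limma, but 1 by DESeq2 and 1 each by edgeR with no filter on low counts or a replicate block, with 2 at an unadjusted p under 0.05. Their median log2 fold change was -0.43, and 8 of 11 were lower, where 7027 of 13699 genes were, or 51.3%, among them Igfbp7 (-0.15), Igfbp3 and Insr (-0.05). Of 11 hepatocyte factors that act with STAT5, 0 were called by edgeR or limma, but 2 by DESeq2. With edgeR 2 were called with no filter or with the offsets, and 1 with a replicate block, with offsets and block, without DDI2-KO 1 or without DDI2-KO 2, with 2 at an unadjusted p under 0.05. Hnf4a (0.23), Cebpa (0.66) and Egfr (0.28) were the most abundant of these.

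Called genes under the sex-dependent GH rhythm went in both directions. Of 10 tested male-pattern genes, Cyp2d9 was called higher and Slco1a1 lower by edgeR, and in all 6 were higher and 4 lower. Cyp2d9, a cytochrome P450, was at 57.6 and 32.0 CPM in WT and at 268 and 264 CPM in the DDI2-KO libraries (log2 fold change 2.57; edgeR, adjusted p = 0.0166), although 29% of its stretches are shared with relatives. It lost the call without DDI2-KO 1 (2.56) or DDI2-KO 2 (2.59). Slco1a1, an organic anion transporter, was at 270 and 196 CPM in WT and at 82.2 and 77.0 CPM in DDI2-KO (-1.55; edgeR, adjusted p = 0.0186). Gstp1, with Cyp2d9 and Slco1a1 the most abundant per length, had a log2 fold change of 0.85 (edgeR, adjusted p = 0.0516).

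Of 13 tested female-pattern genes, Cyp17a1 was called lower by edgeR and 0 were called higher. In all, 10 were higher and 3 lower, where 51.3% of all genes tested were lower. Cyp17a1, a steroid hydroxylase, was at 144 and 92.8 CPM in WT and at 47.0 and 36.5 CPM in DDI2-KO (log2 fold change -1.50; edgeR, adjusted p = 0.0338). Without WT 1 (-1.15), DDI2-KO 1 (-1.70) or DDI2-KO 2 (-1.32) it was not called. Cyp2a4 (0.17) and Cyp2b9 (0.22), the most abundant per length, were not called. The number called in this list was 1 with all libraries, 4 without WT 2, 6 without WT 1 and 0 without DDI2-KO 1 or DDI2-KO 2.

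Igfbp1 and Igfbp2 answer to feeding, so genes of the fed and fasted liver were set beside them. Of 13 fasting-induced genes, G6pc and Pdk4 were called higher by edgeR and 0 were called lower. In all, 6 were higher and 7 lower, with a median log2 fold change of -0.04. Pdk4, which restrains glucose oxidation, was at 6.78 and 6.93 CPM in WT and at 35.5 and 32.6 CPM in DDI2-KO (log2 fold change 2.31; edgeR, adjusted p = 0.00911). G6pc, the last step of glucose release, was at 119 and 71.5 CPM in WT and at 259 and 409 CPM in DDI2-KO (1.81; edgeR, adjusted p = 0.0429), and was not called without DDI2-KO 1 (2.10) or DDI2-KO 2 (1.45). Tat (-0.04) and Pck1 (-0.16), among the most abundant of the list per length, had groups that overlapped. Of 7 insulin-induced genes 0 were called by edgeR or limma, but 1 by DESeq2, 2 by edgeR without WT 2 and 1 with a replicate block, with or without offsets, with 2 at an unadjusted p under 0.05. Scd1 (1.37) and Thrsp (0.83) led this list in level per length. What feeding or insulin contributed to the Igfbp2 difference was not tested.

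Of 11 clock genes, Per1 and Nr1d2 were called by edgeR, both lower. In all, 8 were lower and 3 higher, where 51.3% of all genes tested were lower, and the median log2 fold change was -0.62. Per1 was at 8.95 and 8.22 CPM in WT and at 2.90 and 4.22 CPM in DDI2-KO (log2 fold change -1.27; edgeR, adjusted p = 0.0438). Nr1d2 was at 92.1 and 105 CPM in WT and at 44.4 and 49.3 CPM in DDI2-KO (-1.08; edgeR, adjusted p = 0.0289), and was not called without WT 2 (-0.98). Per1 lost its call without WT 1 (-1.21), WT 2 (-1.33) or DDI2-KO 1 (-1.02). It was also not called by limma-voom (-1.30), by limma-trend (-1.28) or without robust estimation (-1.27). Nor was it called with offsets for GC content and length (-1.05) or with offsets and block (-1.09). In this list DESeq2 called 5 genes, and limma-voom and limma-trend 1 each. Nr1d1 (-0.62) and Dbp (-1.73) were abundant but not called, and Dbp also differed within WT, with 39.9 and 91.6 CPM. The hour of collection and the genotype cannot be told apart.

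**Figure D5:**
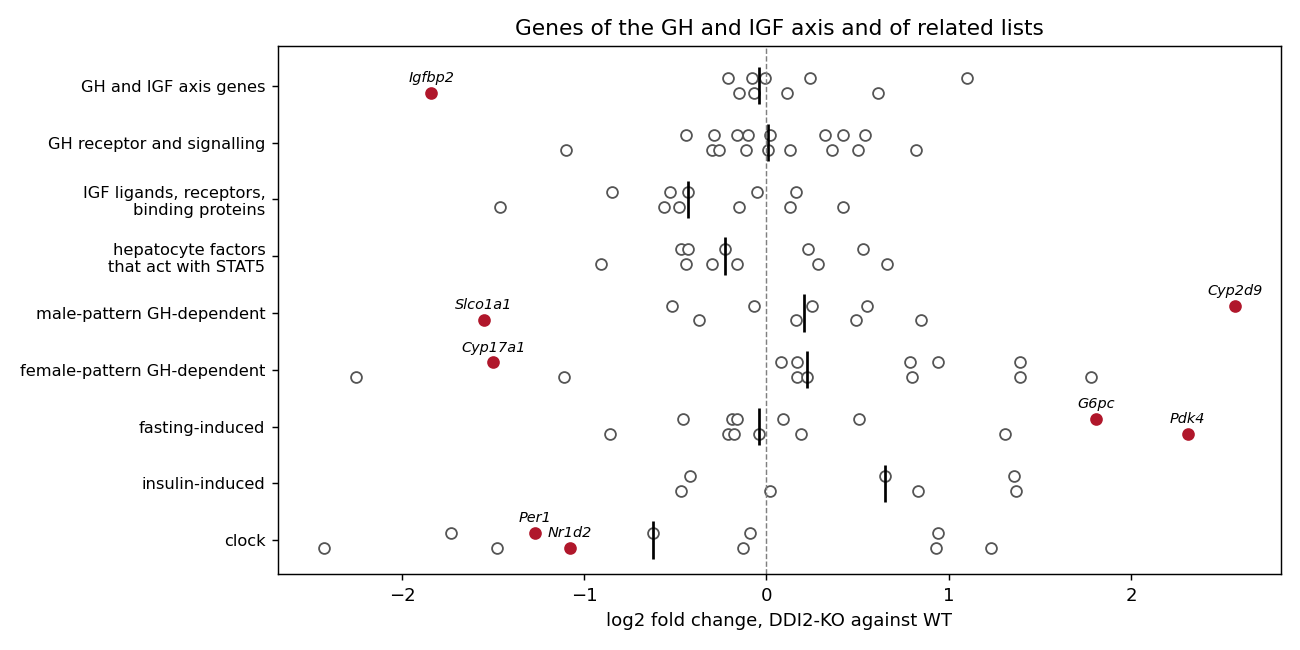
Log2 fold change, DDI2-KO against WT, of every tested gene of the axis and of 8 related lists; filled red points have an adjusted p under 0.05, open points do not, and the black line is the median of the list. Igfbp2 is the only filled point in the upper 4 rows, and the lists below have 1 or 2 each or, for insulin-induced genes, 0.

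In whole liver, fewer cells of a type and less RNA per cell cannot be told apart. The 7 hepatocyte markers matched summed to 163000 and 185000 CPM in WT and to 153000 and 156000 CPM in DDI2-KO, led by Alb, with Ttr and Apoa1 next per length, and 0 were called by edgeR, DESeq2 or limma, also with 0 at an unadjusted p under 0.05. The 6 Kupffer cell markers, led by Cd5l, Clec4f and Vsig4, summed to 581 and 502 CPM in WT and to 718 and 615 CPM in DDI2-KO, with 0 called by edgeR or limma, but 1 by DESeq2, 1 by edgeR with no filter on low counts and 1 at an unadjusted p under 0.05. The 6 sinusoidal endothelial markers summed to 459, 420, 431 and 427 CPM in WT 1, WT 2, DDI2-KO 1 and DDI2-KO 2. Of these Stab2, a scavenger receptor, fell from 73.7 and 61.2 CPM to 32.9 and 29.9 CPM (log2 fold change -1.10; edgeR, adjusted p = 0.0288), and was not called without WT 1 (-0.96). Of the 6 tested, 1 was called and 2 had an unadjusted p under 0.05, and Clec4g, Fcgr2b and Kdr, the most abundant per length, were not called.

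The 6 stellate cell markers, with Dcn, Lrat and Reln most abundant per length, summed to 423 and 438 CPM in WT and to 378 and 417 CPM in DDI2-KO. The 5 cholangiocyte markers, led by Spp1, Sox9 and Epcam, summed to 56.4 and 52.8 CPM against 70.4 and 68.7 CPM. The 6 lymphocyte markers, with Cd79a and Ptprc most abundant per length, summed to 27.3 and 27.6 CPM against 18.9 and 23.1 CPM. None of these 3 lists had a gene called by edgeR, DESeq2 or limma, with 1 gene in each at an unadjusted p under 0.05 by edgeR, and no marker of any list was at 0 in all libraries. The part of these cells in the Igfbp2 difference was not tested.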

How the data were processed

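The authors deposited raw counts, whole reads on each Ensembl gene, 1 file per library, without normalization. The submitters' processing notes name cutadapt 1.8, STAR 2.5.2b, HTSeq 0.6.1 and the build GRCm38, and the kit was stranded. The counter's closing lines were kept out of all sums: reads on no gene were 5.11% and 4.70% of those on genes in WT and 2.53% and 3.65% in DDI2-KO, and reads aligned to several places 65.8% and 51.8% in WT and 49.2% and 47.3% in DDI2-KO. Genes with a read were 18702 and 18627 in WT and 17658 and 17419 in DDI2-KO, which had fewer reads. Symbols, positions and exon lengths came from GENCODE M21 (GRCm38), which matched 48349 of 48709 identifiers.

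Genotypes were compared with edgeR 4.0.16 (R 4.3.3): TMM factors, filterByExpr, robust glmQLFit and glmQLFTest with genotype as the sole term, and p-values were adjusted over all 13699 genes (Benjamini-Hochberg). Standard errors are the log2 fold change over the square root of F. With 2 mice a group, p-values rest on dispersion shared across genes, so mice, rather than depth, limit the precision. Alternatives used DESeq2 1.42.0 and limma 3.58.1. The tests were also run on simulated counts. The members and lists were chosen with earlier results of these data known. The genes named are Ddi2, the members, listed genes with an adjusted p under 0.05, the 3 most abundant per length of each list, and the 3 profiles closest to the member with the smallest p. Some genes that this rule names are not reported here. Named beyond it are Mt1 and Mt2, from the study, Cyp3a16, Cyp3a44, Cyp3a41a, Sult3a1 and Igfbp5, after their values were seen, 2 more Y-linked genes, and genes that share sequence or positions with named ones. Of 153 listed symbols 152 were matched. Stretches of 50 bases were searched in the transcripts of other genes.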

Additional observations from a re-analysis of the deposited data

Results flagged for a closer look

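Reads that overlap more than 1 gene and were therefore given to none amounted to 3.57% of the reads on genes in the mean of the DDI2-KO libraries (3.49% and 3.66%), against 2.52% in the mean of WT. These reads enter no comparison, and their level was above that of the WT libraries. Which genes they came from was not tested.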

How the results depend on the processing

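Igfbp2 was called, and lower in DDI2-KO, under each of 16 alternative fits, from -2.32 to -1.47 on the log2 scale and with adjusted p from 3.12e-09 to 0.0404. It was also the only member called at an adjusted p under 0.1. Members called numbered 1 except for 2 with no filter on low counts, which added Socs2, and 3 with a replicate block, which added Socs2 and Igfbp1. Leaving out each library in turn gave 1 to 2 members, the second being Igfbp1 without WT 2.

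Genes called were 346, and 932 with DESeq2, 136 with limma-voom, 139 with limma-trend, 152 without robust estimation, 830 with offsets for GC content and length, 1544 with no filter, which tested 21099 genes, and 1281 at an adjusted p under 0.1. Leaving out each library gave 153 without WT 1, 203 without WT 2, 344 without DDI2-KO 1 and 631 without DDI2-KO 2, so 153 to 631, where a lone library is assumed to vary like the other group. The cause of these shifts was not tested. Of the genes called 52.6% were higher, 39.7% with upper-quartile factors, 60.8% with library totals only and 37.4% without WT 2.

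With the replicate block 1108 genes were called, and 482 with the block and the offsets together. The labels share only replicate numbers across the genotypes, and the difference between libraries 1 and 2 correlated at 0.0465 between WT and DDI2-KO over 13699 genes, which does not pair the mice.

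Several uncalled members changed sign, and the cause was not tested. Ghr was 0.03 with library totals only, 0.13 with the offsets and 0.13 with offsets and block. Bcl6 was 0.28 with limma-voom, 0.25 with limma-trend, 0.23 with the replicate block and 0.11 with offsets and block. Igf1 was 0.19 with the offsets and 0.17 with offsets and block, and Igfals was 0.01 with offsets and block. With libraries left out Ghr ranged from -0.10 to 0.08, Cish from -0.35 to 0.82, Bcl6 from -0.92 to 1.59, Igfals from -0.42 to 0.23 and Igfbp4 from -0.23 to 0.07. Stat5b and Socs2 stayed above 0 in all 16 fits, as did Igfbp1. Slco1a1 and Pdk4 were called in all 16, Cyp2d9 in 14, Cyp17a1 and G6pc in 13, and Per1 in 8. Socs2 passed in 2 and Igfbp1 in 2. Nr1d2 and Stab2 were called in 15.

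No library was a copy of the other of its genotype, as the chi-square per degree of freedom between them was 71.1 in WT and 37.4 in DDI2-KO. The intervals of Bcl6 and Igfbp1 hold differences of several fold in either direction. For the sex-linked list, where Xist alone was tested, calls ranged from 0 to 1. Calls in the list of GH signalling ranged from 0 to 2, in that of other IGF genes from 0 to 1, in those of hepatocyte factors and of insulin-induced genes from 0 to 2 each, in those of male-pattern and of fasting-induced genes from 1 to 3 each, in that of female-pattern genes from 0 to 6, in that of clock genes from 1 to 5, and in those of Kupffer and of sinusoidal endothelial markers from 0 to 1 each.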
